A study of Caenorhabditis elegans with 6 samples.

Results

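The genes described here encode the thick filament of *Caenorhabditis elegans* muscle and the giant titin-like proteins attached to it. They are 10 genes chosen by name, of 46748 features in the deposited count table: the myosin heavy chain genes unc-54, myo-3, myo-1 and myo-2, the myosin light chain gene mlc-1, the paramyosin gene unc-15, the giant genes unc-22, unc-89 and ttn-1, and the myosin chaperone gene unc-45. All 10 were found by gene name and all 10 passed the filter on low counts. The worms were hermaphrodites of the laboratory wild type N2, aged 5 days and sequenced whole. Of the 6 libraries, 3 carry Y6B3B.9 as their perturbation label and 3 carry L4440. Y6B3B.9 is a gene name, and L4440 is the plasmid that serves as empty vector in feeding RNA interference. Strain, age and sex were the same in both groups, and the labels name no other agent or allele.

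In nematode body wall muscle, myosin molecules pack around a core of paramyosin into thick filaments, which slide past thin filaments of actin. UNC-54 and MYO-3 are the heavy chains of body wall muscle, MYO-3 forming the centre of the filament and UNC-54 its arms, whereas MYO-1 and MYO-2 are the heavy chains of pharyngeal muscle, which pumps food. Twitchin (UNC-22), the obscurin relative UNC-89 and TTN-1 are very large proteins built of immunoglobulin and fibronectin domains with a kinase domain, and UNC-45 is a chaperone that folds the myosin head.

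Totals of reads counted in genes lay between 23103541 and 30014150 in the libraries labelled Y6B3B.9 and between 27518889 and 32012257 in those labelled L4440. Y6B3B.9 itself had 1057, 1211 and 969 reads in the libraries labelled with its name, against 578, 557 and 666 in those labelled L4440 (log2 change in edgeR, Y6B3B.9 over L4440, 0.65 ± 0.074 SE, adjusted p = 1.26e-06). The labels do not give the direction of the perturbation, so "higher", "lower", "rose" and "fell" below refer to the libraries labelled Y6B3B.9 relative to those labelled L4440. L4440 replicate 1 differed from the other libraries of its label in most of these genes: it was the lowest of its label for 9 of the 10. The share of all genes in which it was the lowest was not computed, and not every other muscle gene followed. For unc-54, unc-15, unc-22, unc-89 and ttn-1 this library had between 66.8% and 76.6% of the mean level of the other 2 libraries. Values without it are therefore given where a result rests on them. No source used here says whether libraries of a label came from separate cultures, and p-values measure the spread between these libraries only.

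The 10 genes did not move together. Of the 10, 3 were higher (myo-1, myo-2 and mlc-1), 2 were lower (unc-45 and myo-3), and 5 were not called (unc-54, unc-15, unc-22, unc-89 and ttn-1), in edgeR's quasi-likelihood test at a Benjamini-Hochberg adjusted p of 0.05. Of all 14265 genes tested, 84.1% were called, 46.4% as higher and 37.7% as lower. Without L4440 replicate 1 the counts were again 3 higher and 2 lower. In 3 genes the libraries labelled Y6B3B.9 all lay above those labelled L4440, as in 47.1% of all genes, and in 2 genes all lay below, as in 38.3% of all genes, or 85.4% either way. The median log2 change of the 10 was 0.10, and that of all genes was 0.22. Whole worms were sequenced, so fewer cells of a type and less RNA per cell cannot be told apart in any of these values.

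**Figure D1:**
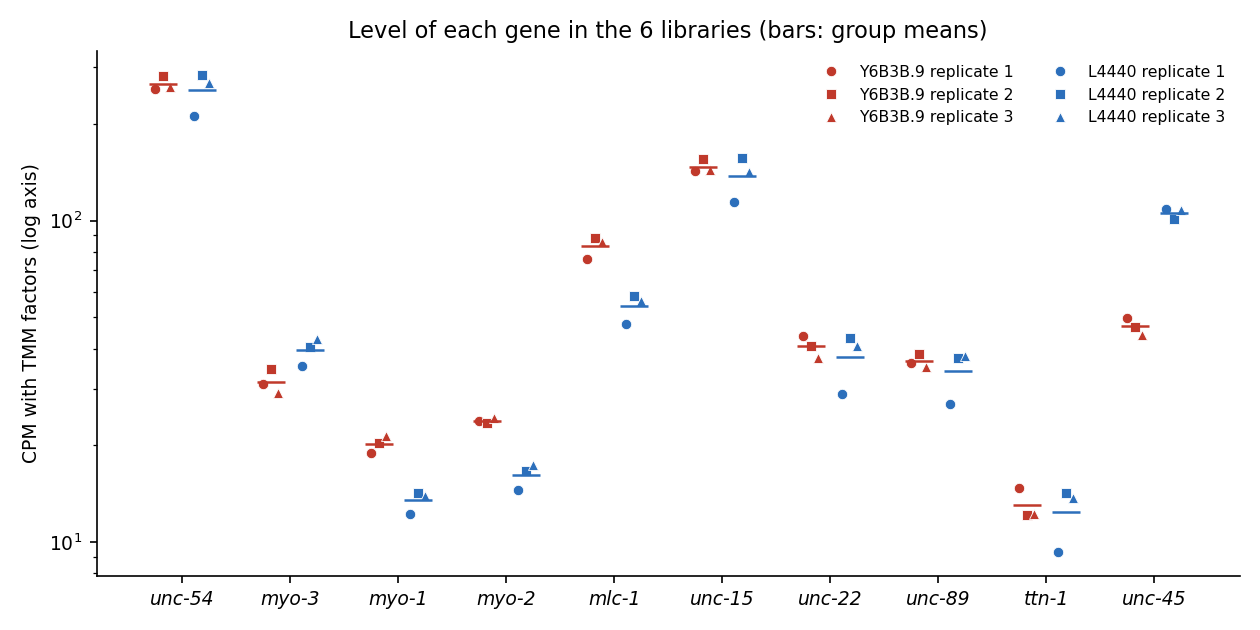
Level of each of the 10 genes in CPM (with TMM factors, on a log axis) in each library, with libraries labelled Y6B3B.9 at the left and those labelled L4440 at the right of each gene, and bars at the group means. The groups do not overlap for myo-1, myo-2 and mlc-1 (higher) and for myo-3 and unc-45 (lower), and L4440 replicate 1 (blue circle) is the lowest of its label except for unc-45.

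Both pharyngeal heavy chain genes rose by nearly the same amount. The gene myo-1 (WBGene00002348) spans 7258946 to 7267057 of chromosome I (build WBcel235, minus strand), and had 630, 654 and 542 reads in the libraries labelled Y6B3B.9, against 305, 355 and 406 in those labelled L4440. In CPM, a count scaled by library size and by TMM, edgeR's factor for library composition, its level was 20.2 ± 1.22 in the libraries labelled Y6B3B.9 and 13.5 ± 1.10 in those labelled L4440 (SD, n = 3 each). Every library of the first label lay above every library of the second. The log2 change was 0.58 (SE 0.083, edgeR adjusted p = 1.32e-05, between 2.80e-08 and 0.00898 over the alternatives). The gene myo-2 (WBGene00003514), on the plus strand of chromosome X at 12468061 to 12475348, had 795, 758 and 617 reads in the libraries labelled Y6B3B.9, against 364, 413 and 504 in those labelled L4440. Its level was 23.9 ± 0.360 CPM in the libraries labelled Y6B3B.9 and 16.2 ± 1.42 CPM in those labelled L4440 (SD, n = 3 each), again without overlap. Its log2 change was 0.56 (SE 0.076, edgeR adjusted p = 7.33e-06, between 1.31e-08 and 0.0104 over the alternatives). Within a library myo-2 took 126.2%, 115.9% and 113.8% of the reads of myo-1 in the libraries labelled Y6B3B.9, against 119.3%, 116.3% and 124.1% in those labelled L4440, so the groups overlapped in this ratio (exact two-sided permutation test, p = 0.7). Of 5 other markers of pharyngeal muscle, 4 were tested and all 4 rose, where 46.4% of all genes rose. Their median log2 change was 0.85. They were the troponin C gene tnc-2 (1.03), the troponin I gene tni-4 (0.90), the troponin T gene tnt-4 (0.80) and the heavy chain gene myo-5 (0.60). The summed level of the 5 markers ranged from 63.3 to 72.5 CPM in the libraries labelled Y6B3B.9 and from 36.3 to 38.9 CPM in those labelled L4440. The fifth, the homeobox gene ceh-22, had at most 10 reads in a library.

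The heavy chain genes of body wall muscle differed from each other. For unc-54 (WBGene00006789; minus strand of chromosome I, 14855901 to 14863482), the major heavy chain, the level was 256, 281 and 261 CPM in the libraries labelled Y6B3B.9, against 211, 285 and 268 CPM in those labelled L4440. The groups overlapped, and only L4440 replicate 1 lay below the rest. The log2 change was 0.06 (SE 0.091, 95% interval -0.14 to 0.27, edgeR adjusted p = 0.521, between 0.000346 and 0.872 over the alternatives), and without L4440 replicate 1 it was -0.07. For myo-3 (WBGene00003515; minus strand of chromosome V, 12226817 to 12234343), the minor heavy chain, reads were 1036, 1111 and 738 in the libraries labelled Y6B3B.9, against 881, 1009 and 1243 in those labelled L4440. Its level was 31.1, 34.5 and 29.03 CPM in the libraries labelled Y6B3B.9, against 35.3, 40.5 and 42.7 CPM in those labelled L4440. These did not overlap, although the highest of the first label and the lowest of the second were close. The log2 change was -0.32 (SE 0.078, edgeR adjusted p = 0.00148, between 7.72e-10 and 0.789 over the alternatives). It was -0.42 without L4440 replicate 1. With library totals in place of TMM the value was -0.03 and was not called.

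The regulatory light chain gene mlc-1 (WBGene00003369; plus strand of chromosome X, 17459210 to 17460778) rose with the pharyngeal heavy chains. It had 2531, 2835 and 2174 reads in the libraries labelled Y6B3B.9, against 1195, 1450 and 1634 in those labelled L4440, or 83.2 ± 6.43 CPM under Y6B3B.9 and 54.1 ± 5.50 CPM under L4440 (SD, n = 3 each). No library of the first label lay within the range of the second. The log2 change was 0.62 (SE 0.074, edgeR adjusted p = 2.80e-06, between 5.95e-20 and 0.00243 over the alternatives). The neighbouring gene mlc-2 is a near copy of mlc-1, with which reads could be shared, and it rose by log2 0.77 (SE 0.065), at 138 CPM in the libraries labelled Y6B3B.9 and 80.9 CPM in those labelled L4440.

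Paramyosin and the giant genes, like unc-54, were not called. For unc-15 (WBGene00006754; minus strand of chromosome I, 7376604 to 7383197) the level was 143, 155 and 144 CPM in the libraries labelled Y6B3B.9, against 114, 157 and 142 CPM in those labelled L4440. The groups overlapped, and the log2 change was 0.10 (SE 0.094, 95% interval -0.11 to 0.30, edgeR adjusted p = 0.345). For the twitchin gene unc-22 (WBGene00006759; minus strand of chromosome IV, 11972697 to 12011007) it was 43.7, 40.8 and 37.4 CPM in the libraries labelled Y6B3B.9, against 28.9, 43.2 and 40.8 CPM in those labelled L4440. Apart from L4440 replicate 1, these 5 values were mixed between the labels, the log2 change being 0.11 (SE 0.14, 95% interval -0.20 to 0.42, edgeR adjusted p = 0.459). ZK829.9, on the other strand, shares 93 exonic bases with unc-22 and took 25169 reads over the 6 libraries, against 6708 for unc-22. The kit used does not keep the strand of the RNA, so reads from that stretch cannot be told apart. For unc-89 (WBGene00006820; plus strand of chromosome I, 4035702 to 4090885) the level was 36.1, 38.4 and 35.05 CPM in the libraries labelled Y6B3B.9, against 26.8, 37.4 and 38.03 CPM in those labelled L4440. Its log2 change was 0.10 (SE 0.11, 95% interval -0.14 to 0.34, edgeR adjusted p = 0.413). The longest gene, ttn-1 (WBGene00006436; minus strand of chromosome V, 6120909 to 6202632), had 490, 390 and 312 reads in the libraries labelled Y6B3B.9, against 233, 355 and 398 in those labelled L4440. The labels overlapped here as well, at a log2 change of 0.07 (SE 0.14, 95% interval -0.23 to 0.37, edgeR adjusted p = 0.646). Without L4440 replicate 1 the log2 changes were -0.04 for unc-15, -0.06 for unc-22, -0.06 for unc-89 and -0.11 for ttn-1, none of them called.

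The myosin chaperone gene was the one with the largest difference of the 10. The gene unc-45 (WBGene00006781; plus strand of chromosome III, 491547 to 502625) had 1660, 1505 and 1123 reads in the libraries labelled Y6B3B.9, against 2706, 2510 and 3149 in those labelled L4440. Its level was 49.8, 46.8 and 44.2 CPM in the libraries labelled Y6B3B.9, against 108, 101 and 108 CPM in those labelled L4440. Here L4440 replicate 1 was not low, at 103.7% of the mean of the other 2 libraries of its label. The gene fell (log2 change -1.17, SE 0.055; edgeR, adjusted p = 9.81e-11, between 1.60e-112 and 0.00152 over the alternatives), its level being 0.443 times that under the L4440 label. A log2 change below this was found in 6.76% of the genes tested. UNC-45 also acts outside muscle, in the germline and early embryo, together with the nonmuscle myosin NMY-2. The gene nmy-2 fell by the same measure (log2 change -1.17, SE 0.064), and so did 8 of 8 germline markers, with a median of -1.15, and 6 of 6 tested markers of the early embryo, with a median of -2.56, where 37.7% of all genes fell. The sixth embryonic marker, end-3 (-0.60), was near the threshold and was not called in 10 of the 18 alternatives, library totals among them. The germline markers summed to between 3366 and 3623 CPM in the libraries labelled Y6B3B.9 and to between 8384 and 8602 CPM in those labelled L4440, while those of the early embryo summed to between 19.7 and 25.5 CPM in the libraries labelled Y6B3B.9 and to between 108 and 159 CPM in those labelled L4440. Their part in the change of unc-45 was not tested. Among 8866 genes with at least 5 CPM, the 3 whose centred log2 CPM over the 6 libraries lay nearest to that of unc-45 were cul-1 (log2 change -1.19), npp-22 (-1.17) and imb-1 (-1.17). The 3 nearest to unc-54 were unc-15 at a distance of 0.0595, nhr-100 at 0.105 and Y55F3BR.6 at 0.128.

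The scaling of the libraries moved all 10 values together. DESeq2's size factors shifted the median log2 change of all genes by -0.15 and library totals shifted it by 0.29, relative to TMM. The 5 genes that were not called lay on either side of 0 accordingly, between -0.09 and -0.04 with DESeq2's size factors and between 0.36 and 0.40 with library totals, where all 5 were called as higher. DESeq2's size factors left 3 of the 10 genes higher and 2 lower, where 83.0% of all genes were called (41.2% higher, 41.7% lower). With library totals 8 were higher and 1 lower, where 85.4% of all genes were called (57.5% higher, 27.9% lower). A scaling shifts all genes by nearly the same amount, which does not tell which scaling is right. Relative to the median of all genes, values therefore differed by at most 0.00142 between the 3 scalings. On that scale unc-45 was at -1.39, myo-3 at -0.54, unc-54 at -0.15, ttn-1 at -0.15, unc-15 at -0.12, unc-89 at -0.12 and unc-22 at -0.11, whereas myo-2 was at 0.34, myo-1 at 0.36 and mlc-1 at 0.40.

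**Figure D2:**
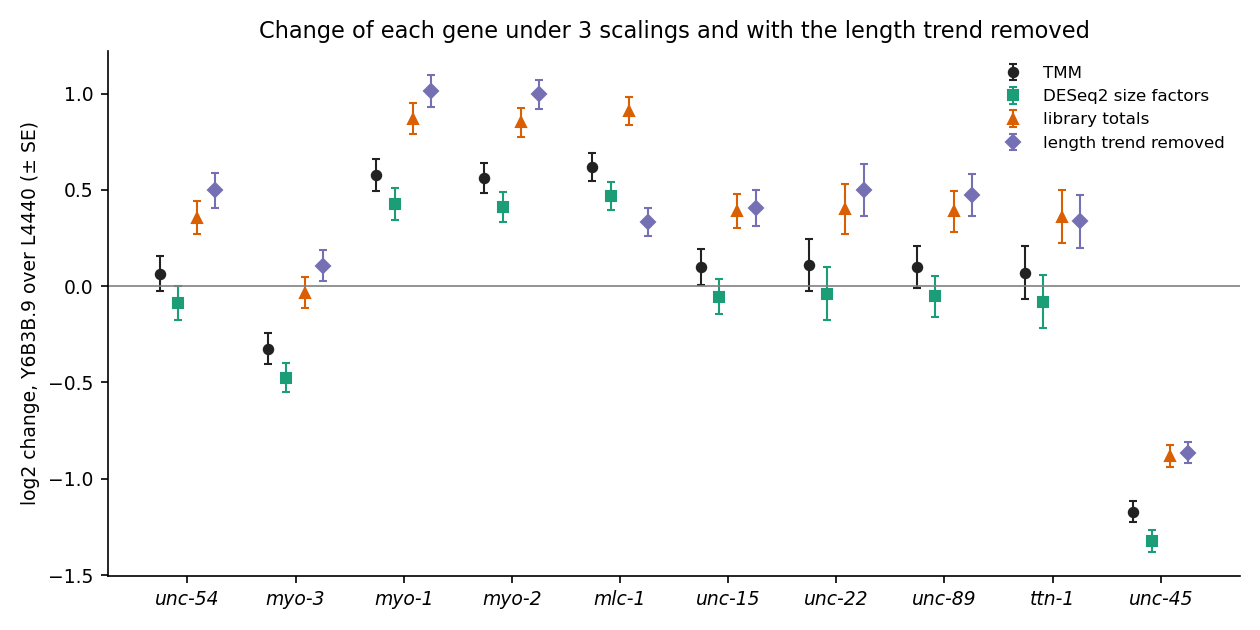
Log2 change of each gene (Y6B3B.9 over L4440, with its SE) in edgeR with TMM, DESeq2's size factors, library totals, and with the trend of log2 change on gene length removed. The fall of unc-45 and the rises of myo-1, myo-2 and mlc-1 keep their sign in all 4, while unc-54, unc-15, unc-22, unc-89 and ttn-1 lie near 0 with TMM and DESeq2's size factors and between 0.34 and 0.50 with library totals or the length trend taken out.

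Ratios to unc-54 within a library do not depend on scaling, and 5 of the 9 did not overlap between the labels. The share of all genes whose ratio to unc-54 did not overlap was not computed. In CPM 85.4% of all genes did not overlap. Reads of unc-15 made up 55.7%, 55.1% and 55.2% of those of unc-54 in the libraries labelled Y6B3B.9, against 54.1%, 55.1% and 53.0% in those labelled L4440. This ratio was alike in all libraries, L4440 replicate 1 included. Of the giants, unc-22 had 15.3 ± 1.497% of unc-54 reads under the Y6B3B.9 label and 14.7 ± 0.874% under the L4440 label, unc-89 had 13.7 ± 0.321% under Y6B3B.9 and 13.3 ± 0.779% under L4440, and ttn-1 had 4.92 ± 0.733% under Y6B3B.9 and 4.84 ± 0.375% under L4440 (SD, n = 3 each). All 3 ratios overlapped between the labels. By contrast myo-3 had 12.1%, 12.3% and 11.1% of unc-54 reads in the libraries labelled Y6B3B.9, against 16.7%, 14.2% and 15.95% in those labelled L4440, without overlap. The ratio of unc-45 was 17.7 ± 1.53% in the libraries labelled Y6B3B.9 and 42.4 ± 8.10% in those labelled L4440 (SD, n = 3 each). The ratio of myo-1 was 7.59 ± 0.512% in the libraries labelled Y6B3B.9 and 5.33 ± 0.398% in those labelled L4440 (SD, n = 3 each). That of myo-2 was 8.99 ± 0.535% under Y6B3B.9 and 6.40 ± 0.537% under L4440, and that of mlc-1 was 31.2 ± 1.60% under Y6B3B.9 and 21.4 ± 1.14% under L4440 (SD, n = 3 each). Those 5 ratios did not overlap between labels, and each gave p = 0.1 in an exact two-sided permutation test, the smallest that 3 against 3 libraries allow, or 0.18 adjusted over the 9 ratios, so no ratio could pass a threshold of 0.05.

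**Figure D3:**
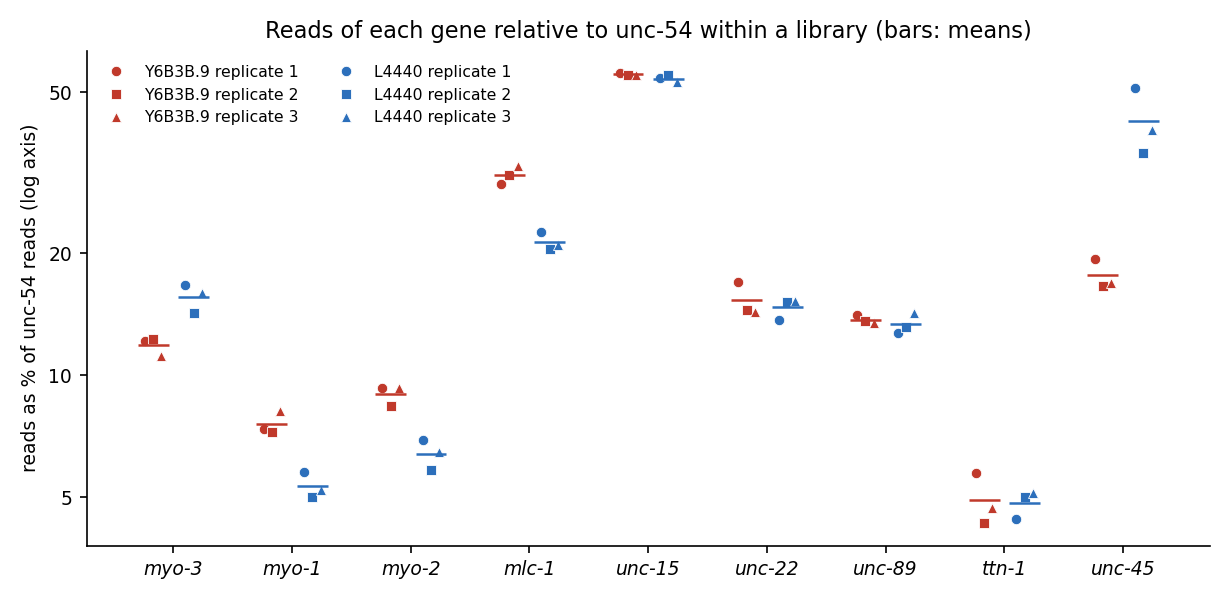
Reads of each gene as a percentage of unc-54 reads in the same library, on a log axis, with libraries labelled Y6B3B.9 at the left and those labelled L4440 at the right of each gene and bars at the means. The ratios of unc-15, unc-22, unc-89 and ttn-1 overlap between labels, those of myo-1, myo-2 and mlc-1 are higher and those of myo-3 and unc-45 lower under the Y6B3B.9 label.

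Per kilobase of exonic length, levels of the 10 genes spanned a wide range and kept nearly the same order under both labels. In CPM per kilobase, mlc-1 was highest in the libraries labelled Y6B3B.9, at 69.7 ± 5.39 (SD, n = 3), followed by unc-15 at 43.0 ± 1.96 and unc-54 at 42.5 ± 2.12, whose libraries overlapped. Below them came unc-45 (13.7 ± 0.821), myo-3 (5.17 ± 0.455), myo-2 (3.77 ± 0.0569), myo-1 (3.10 ± 0.188), unc-22 (1.77 ± 0.136), unc-89 (1.41 ± 0.0661) and ttn-1 (0.230 ± 0.0255), with no overlap between neighbours. In the libraries labelled L4440 the 3 leading genes overlapped each other, mlc-1 at 45.3 ± 4.61, unc-54 at 40.6 ± 6.13 and unc-15 at 40.2 ± 6.29, and unc-45 stood at 31.0 ± 1.25. There myo-3 had 6.47 ± 0.626, myo-2 2.55 ± 0.224, myo-1 2.07 ± 0.170, unc-22 1.64 ± 0.333, unc-89 1.32 ± 0.244 and ttn-1 0.220 ± 0.0476 CPM per kilobase. Under that label myo-1 overlapped with unc-22, and unc-22 with unc-89. Together the 10 genes took between 0.0764% and 0.0817% of reads in the libraries labelled Y6B3B.9 and between 0.0553% and 0.0686% in those labelled L4440.

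Log2 changes of the 10 genes had no common order with their length. Exonic lengths, as implied by the deposited counts and RPKM, ran from 1194 bases in mlc-1 to 56577 bases in ttn-1, the longest gene tested. Over the 10 genes Pearson's r of log2 change with log2 length was -0.0093 and Spearman's rho was 0.103. Without unc-45 r was -0.401, whereas rho was -0.0833. Over all 14265 tested genes r was -0.26 and rho was -0.296. These correlations are across genes that share the same 6 libraries, and genes are not independent replicates. Genes of nearly the same length went different ways. The 4 heavy chain genes have between 6105 and 6504 exonic bases, and their log2 changes ran from -0.32 (myo-3) over 0.06 (unc-54) and 0.56 (myo-2) to 0.58 (myo-1). With 3424 and 3416 bases, unc-15 and unc-45 had log2 changes of 0.10 and -1.17. Conversely unc-15 and ttn-1, which is 16.5 times as long, had log2 changes of 0.10 and 0.07.

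Among all genes the median log2 change was 0.61 in 4731 genes under 1 kb, 0.19 in 6095 genes of 1 to 2 kb, -0.38 in 2784 genes of 2 to 4 kb and -0.58 in 570 genes of 4 to 8 kb. It was -0.06 in 74 genes of 8 to 16 kb and 0.30 in the 11 genes of 16 kb or more, a class that includes unc-22, unc-89 and ttn-1 and holds few genes. The other 8 genes of that class had a median of 0.56, and the share of the class below unc-22, unc-89 and ttn-1 was 27.3%, 18.2% and 9.09%. In the class of 4 to 8 kb, 79.8% of genes had a lower log2 change than myo-1, 78.9% a lower one than myo-2, 64.2% a lower one than unc-54 and 57.9% a lower one than myo-3. In the class of 2 to 4 kb, 61.2% of genes lay below unc-15 and 9.95% below unc-45. Of the 10 genes, 9 lay above the loess trend of log2 change on length over all genes, and unc-45 lay below it. With this trend removed 8 of the 10 were higher and 1 lower, against 37.2% and 44.0% of all genes (81.2% called either way). The log2 changes were then 1.02 for myo-1, 1.00 for myo-2, 0.50 for unc-54, 0.50 for unc-22, 0.47 for unc-89, 0.41 for unc-15, 0.34 for ttn-1, 0.33 for mlc-1 and -0.86 for unc-45, all called, and 0.11 for myo-3, not called. At 16 kb or more only 11 genes lie along the trend, which there lay below their median of 0.30. It was -0.39 at the length of unc-22, -0.38 at that of unc-89 and -0.27 at that of ttn-1. For these genes the values with the trend removed are therefore not a comparison with their own length class, in which most genes lay above them.

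**Figure D4:**
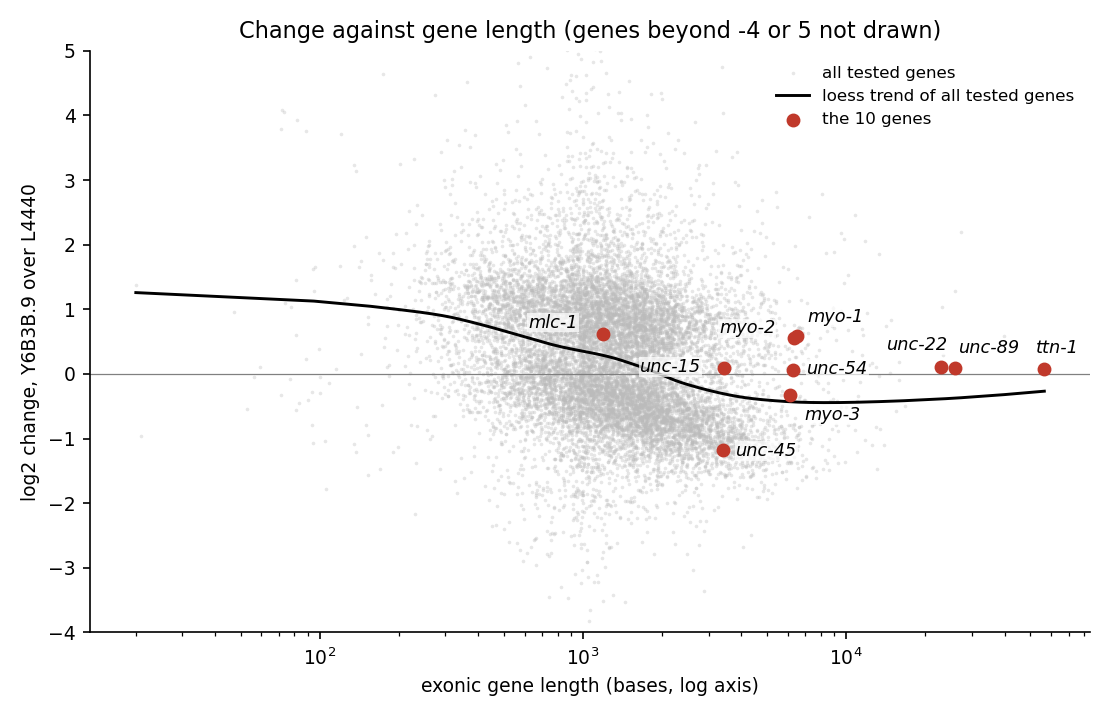
Log2 change (Y6B3B.9 over L4440) of all tested genes against exonic gene length in bases, on a log axis, with the loess trend over all genes as a line and the 10 genes in red. The trend falls with length up to a few kilobases, and the heavy chain genes, all near 6 kb, spread from -0.32 for myo-3 to 0.58 for myo-1.

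The counts of other genes of the muscle apparatus stand beside 46.4% of all genes that rose and 37.7% that fell. Of 9 other thick filament and giant muscle genes, 6 rose and 0 fell (1 fell with DESeq2's size factors or without L4440 replicate 1, and 9 rose with library totals or after removal of the length trend), with a median log2 change of 0.56. The 4 with the smallest p were the essential light chain gene mlc-3 (0.92, SE 0.072), mlc-2 (0.77), myo-5 (0.60) and the immunoglobulin-domain gene dim-1 (0.37). In the DESeq2 Wald test and with log2(RPKM + 1) as deposited, dim-1 was not called. Of 22 thin filament genes, 13 rose and 7 fell (16 and 3 with library totals), with a median of 0.42. Those with the smallest p were the actin genes act-2 (-1.28, SE 0.050) and act-4 (0.96, SE 0.066), the troponin C gene pat-10 (0.85) and tni-4 (0.90). The actin genes are close copies, among which reads could be divided. The summed level of the list was lower, at 2821 to 3032 CPM in the libraries labelled Y6B3B.9 and 3118 to 3290 CPM in those labelled L4440, with act-2 at 412 CPM under Y6B3B.9 and 1001 CPM under L4440. Among these genes tnc-2, tni-4 and tnt-4 are also pharyngeal markers counted above, as is myo-5 among the thick filament genes. Of 17 genes of dense bodies and M-lines, the sites where filaments attach to the membrane, 10 rose and 4 fell, with a median of 0.32. Among the 10 were the LIM domain genes lim-8 (1.27, SE 0.074) and lim-9 (0.78) and the alpha-actinin gene atn-1 (0.89). The 4 that fell were the integrin beta gene pat-3 (-0.93, SE 0.053), the LIM domain gene unc-97 (-0.60), pat-6 (-0.27) and the kindlin gene unc-112 (-0.26), and pat-6 and unc-112 were above 0 with library totals.

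Of 17 genes of excitation and calcium handling, 10 rose and 3 fell, with a median log2 change of 0.46, although their summed level was lower, at 747 to 809 CPM in the libraries labelled Y6B3B.9 and 903 to 963 CPM in those labelled L4440. The potassium channel gene slo-1 (1.53, SE 0.14), the dystrobrevin gene dyb-1 (1.01) and the gene itr-1 of the inositol trisphosphate receptor (0.52) were higher. The acetylcholine receptor gene unc-63 (-1.14, SE 0.15), the calcium pump gene sca-1 (-0.54) and the ryanodine receptor gene unc-68 (-0.50, at -0.08 and not called with the length trend removed) were lower. In addition, sca-1 was not called with RPKM as deposited, and unc-68 was not called in any RPKM alternative. Of 5 muscle transcription factor genes 3 passed the filter: unc-120 (0.57) and hnd-1 (0.78) rose, and hlh-1, at 0.17 (SE 0.27), was not called. Neither unc-120 nor hnd-1 was called with the length trend removed or in the DESeq2 Wald test. The other two, hlh-8 and ceh-22, had at most 13 reads in a library.

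Chaperone and protein turnover genes, listed here as myosin chaperone partners, were mostly lower. Of 9 such genes 8 fell and 1 rose, with a median log2 change of -0.79, where 37.7% of all genes fell. The ATPase genes cdc-48.1 (-1.14, SE 0.057) and cdc-48.2 (-0.95) and the chaperone genes hsp-1 (-1.06) and hsp-110 (-0.95) were lower, and unc-23, whose protein regulates HSP-1 in muscle attachment, was higher (0.80, SE 0.084). With library totals 6 of the 9 fell. The 8 germline markers fell beside them, with the median of -1.15 given above, and the part of germline RNA in the values of this list and of nonmuscle myosin was not tested. Of 6 genes of nonmuscle myosin 4 fell and 2 rose, with a median of -0.43. The heavy chain gene nmy-2 (-1.17), the myosin phosphatase gene mel-11 (-0.60) and the light chain gene mlc-5 (-0.25, above 0 with library totals) were among the 4 that fell. The heavy chain gene nmy-1 (0.26) and the light chain gene mlc-4 (0.26, at -0.23 with the length trend removed) were higher. Neither was called with DESeq2's size factors or in the DESeq2 Wald test, and nmy-1 was also not called with RPKM as deposited.

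**Figure D5:**
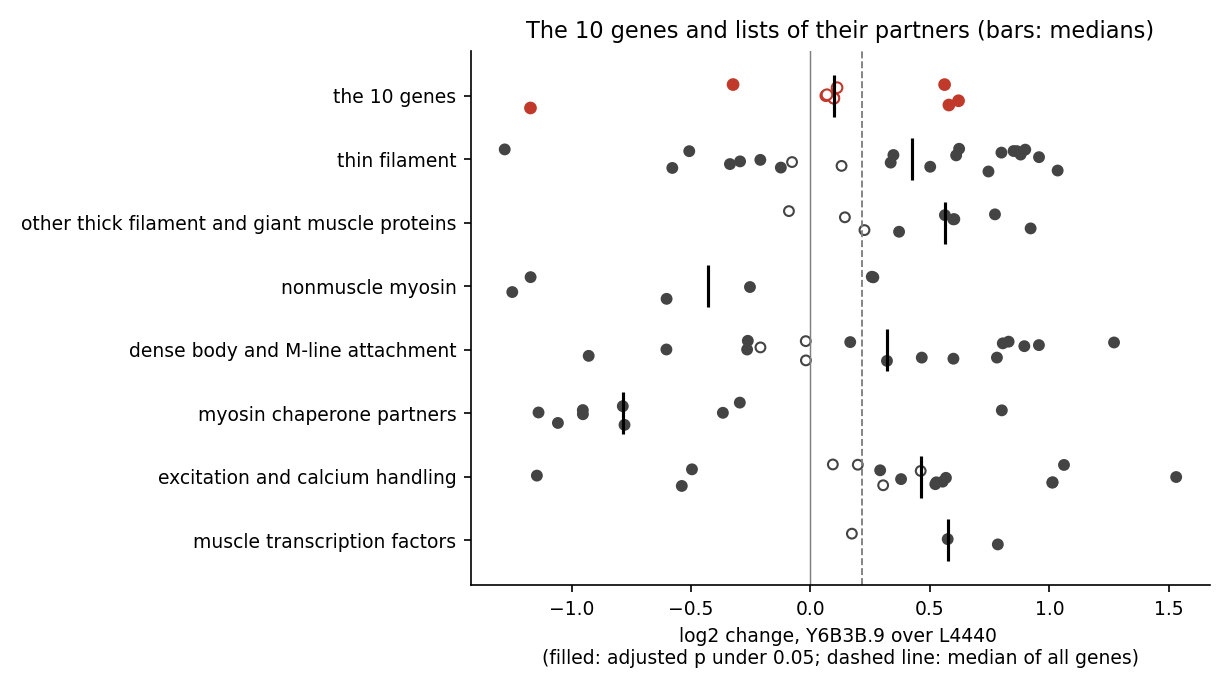
Log2 change (Y6B3B.9 over L4440) of each tested gene in the 7 lists, with the 10 genes in the top row, filled points for an adjusted p under 0.05, bars at the medians and a dashed line at the median of all genes. Nonmuscle myosin and myosin chaperone partners have medians below 0, at -0.43 and -0.79, and the other 5 lists have medians above the dashed line.

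Markers of other tissues were counted beside the muscle genes, with the same 46.4% of all genes higher and 37.7% lower. Of 8 intestinal markers 7 rose and 1 fell, with a median log2 change of 0.94, and their summed level was 19497 to 20834 CPM in the libraries labelled Y6B3B.9 and 13783 to 14473 CPM in those labelled L4440. Most of that sum was the yolk protein gene vit-2, with 17123 CPM in the libraries labelled Y6B3B.9 and 12382 CPM in those labelled L4440 (log2 change 0.47). Of 8 neuronal markers 4 rose and 2 fell, shares near those of all genes, with a median of 0.59. Of those called, rgef-1 (0.63) was not called in 8 alternatives, unc-119 (-0.36) in 5 and unc-104 (-0.20) in 8, the last standing at 0.22 with the length trend removed. The neuronal markers summed to between 271 and 294 CPM in the libraries labelled Y6B3B.9 and to between 237 and 251 CPM in those labelled L4440. Of 8 hypodermal markers 6 rose and 2 fell, with a median of 1.92, although their summed level was lower, at 155 to 167 CPM in the libraries labelled Y6B3B.9 and 205 to 219 CPM in those labelled L4440. In the sum the transcription factor gene lin-26 predominated, with 133 CPM in the libraries labelled Y6B3B.9 and 195 CPM in those labelled L4440. Each of the 6 hypodermal markers that rose had at most 21 reads in any library labelled L4440. Of the hypodermal markers, elt-1 (-0.25) was not called in 9 alternatives, wrt-2 (0.82) in 5 and lin-26 (-0.55) in 2. With library totals elt-1 stood at 0.04. The part of these tissues in the values of the muscle genes was not tested.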

How the data were processed

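Whole N2 hermaphrodites of 5 days were sequenced in 6 libraries, grouped by the perturbation label, 3 a label. The kit was TruSeq RNA v2, which is unstranded, per the labels' protocols. STAR 2.4.1d, featureCounts 1.4.6-p4, bcl2fastq 1.8.4 and build WBcel235 are named in the submitters' processing notes. How strand and multiply mapped reads were handled is not given in the sources used here. Raw counts and RPKM for 46748 features were deposited by the authors. RPKM as deposited divide by totals that cycle through the libraries from row to row: of 4330 genes with at least 1000 reads in every library, the length implied by count and RPKM was constant within 0.1% for 4330 with cycled totals and for 0 with each library's own total. Tests therefore rest on counts, and RPKM gave the exonic lengths and an alternative.

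Counts were tested on the whole table in edgeR 4.0.16 (R 4.3.3) with filterByExpr, TMM and the robust quasi-likelihood test, Benjamini-Hochberg adjusted over 14265 genes, threshold 0.05. Replicates were numbered in the order of the records and not paired. Standard errors come from the F statistic. Fits were first tested on simulated counts, where 15 of 209 calls were false among 14039 genes tested. Few genes were changed in that simulation and no length trend was set, so it does not test the scaling of these libraries. CPM values use TMM factors, and per kilobase they are divided by the exonic length. Ratios of reads within a library were compared by exact permutation (scipy 1.17.1). Positions come from an annotation of build WBcel235, and hsp-90 was taken for the listed symbol daf-21.

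Alternatives were other scalings and filters, each library left out, robust=FALSE, DESeq2 1.42.0, limma 3.58.1 (voom, and log2(RPKM + 0.1) and log2(RPKM + 1), as deposited and with own totals), and removal of a loess trend of log2 change on length. The ratio of myo-2 to myo-1 and the correlation without unc-45 were added after the data were seen. The members and lists were chosen with earlier results of these data known. Named were all 10 genes, for each of 7 lists the 4 genes with the smallest p and every called gene on a side with 5 or fewer, single genes of the marker lists (chosen after their values were seen), and the 3 genes nearest in profile to unc-54 and unc-45. 1 gene of the nonmuscle myosin list is counted but not reported by name here. Reads carry no molecular identifiers. Figures were drawn with matplotlib 3.10.9.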

Additional observations from a re-analysis of the deposited data

How the results depend on the processing

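No paired analysis was made, because the labels state no pairing between the groups. The calls and signs of unc-45, myo-1, myo-2 and mlc-1 were the same in all 18 alternatives. For these genes the largest adjusted p came from RPKM as deposited, whose totals cycle through the libraries. The smallest came from the fit without a filter (unc-45 and mlc-1) or with the length trend removed (myo-1 and myo-2). Every count of the 10 genes that left out 1 library was 3 higher and 2 lower. The number higher was 8 with library totals or the length trend removed, and 5 and 7 with log2(RPKM + 0.1) and log2(RPKM + 1) on own totals. The number lower was 1 in those 4 and with both pseudocounts on deposited RPKM, since myo-3 was then not called (0.11 with the length trend removed). The median log2 change of the 10 was -0.0535 with DESeq2's size factors, -0.12 in the DESeq2 Wald test, 0.39 with library totals and with log2(RPKM + 0.1) on own totals, 0.31 with log2(RPKM + 1), 0.30 with log2(RPKM + 0.1) as deposited and 0.44 with the length trend removed, and between -0.0626 and 0.16 with 1 library left out.

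Signs turned for genes close to 0. With DESeq2's size factors and in the DESeq2 Wald test, unc-54 was at -0.0869 and -0.15, unc-15 at -0.0538 and -0.12, unc-22 at -0.0395 and -0.10, unc-89 at -0.0531 and -0.12 and ttn-1 at -0.0815 and -0.14. Without a filter unc-54 was at -0.0314 and ttn-1 at -0.0274. With 1 library left out the ranges were -0.0706 to 0.12 for unc-54, -0.0367 to 0.17 for unc-15, -0.0619 to 0.19 for unc-22, -0.0634 to 0.17 for unc-89 and -0.11 to 0.15 for ttn-1. On library totals and on own-total RPKM with either pseudocount, mlc-5 was at 0.0374, 0.0369 and 0.0367, unc-112 at 0.0282, 0.0213 and 0.0204, and pat-6 at 0.0251, 0.0252 and 0.0240. With the length trend removed mlc-4 was at -0.23 and hlh-1 at -0.15, and hlh-1 was at -0.0352 in the DESeq2 Wald test. With 1 library left out the log2 difference of the ratio to unc-54 ranged from -0.0248 to 0.0981 for unc-22 and from -0.10 to 0.103 for ttn-1, and that of myo-2 to myo-1 from -0.0619 to 0.0125. By gene span r of change with length was -0.21 over the 10 genes and -0.14 over all genes. By exonic length r over the members without unc-45 was -0.40. The cause of these differences was not tested. Depth limits ttn-1 most, at 233 to 490 reads per library.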
